A study of Mus musculus with 2 samples.

Results

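The 10 genes described here, *Tnc*, *Ptprz1*, *Hopx*, *Fam107a*, *Lifr*, *Ptn*, *Moxd1*, *Il6st*, *Itgb5* and *Slc1a3*, are commonly used as signature genes of human outer radial glia, and were taken by gene symbol as 10 of the 32285 genes of the count matrices. Each symbol named 1 row. The rule used no measured value, but the genes were chosen with earlier results of these data known. The series holds 2 single-cell RNA-seq samples of embryonic day 14.5 mouse brain, labelled wild type replicates 1 and 3, both controls of the Eomes-Cre line and designated *EomesMllt3* controls. No treated or mutant group is part of these data. The source label names brain hemispheres, whereas the study's methods and the design text name the dorsal telencephalon, which was dissociated with papain from C57BL/6 J embryos. The labels do not say how many embryos entered a sample.

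Outer radial glia are neural stem cells that sit away from the ventricle in the outer subventricular zone. They keep a basal process, divide repeatedly and add many neurons to the large cortex of humans and other gyrencephalic mammals, while the mouse has few such cells at midgestation. In the mouse, most radial glial cells (RGCs) lie in the ventricular zone, contact the ventricle and give rise to intermediate progenitor cells (IPCs), which in turn divide into neurons. The signature joins matrix and growth factor genes (*Tnc*, *Ptn*), a receptor-type phosphatase gene (*Ptprz1*), receptors of the leukaemia inhibitory factor pathway (*Lifr*, *Il6st*), and genes of astroglial cells (*Slc1a3*).

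After filtering, 12003 cells were grouped into 29 clusters without use of these 10 genes. Named by markers, they held 2237 RGC-like cells (682 in replicate 1 and 1555 in replicate 3), 1604 IPC-like cells, 4989 projection neuron-like cells and 547 MGE interneuron-like cells, MGE being the medial ganglionic eminence. The 7 smaller named classes held from 51 to 199 cells each, and 1768 cells lay in 4 clusters that stayed unnamed. The matrices held 64182006 and 93295807 unique molecular identifiers (UMIs, 1 per captured RNA molecule), with medians of 9802 and 9754 UMIs per barcode. Of the barcodes, 23 occurred in both libraries, 0.373% of replicate 1 and 0.259% of replicate 3. In the RGC-like cells, all 12 RGC markers were detected, with summed levels of 10485.9 and 7911.8 CPM (UMIs of a gene per 1000000 UMIs), against 516 and 540 CPM for the 11 IPC markers. Markers of LGE neurons (of the lateral ganglionic eminence) summed to 3544.0 and 3321.2 CPM, of which *Meis2* held 2725.1 and 2310.6 CPM, and those of MGE interneurons to 1742.4 and 1579.3 CPM, of which *Sox6* held 1685.2 and 1555.6 CPM. The markers of each of the other classes summed to at most 611 CPM. The 8 red blood cell markers, which RGCs do not express, summed to 594 and 557 CPM there. Levels below are CPM of a class in 1 library, the UMIs of its cells summed, with replicate 1 given before replicate 3. Nothing in the labels says that the libraries came from separate litters, so p-values measure the spread between these 2 libraries.

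The levels of *Tnc* correlated most with those of *Hopx* and *Slc1a3* among the members over cell clusters, as given at the end, and the promoters of these 3 genes are therefore shown. The 10 genes had 15 RefSeq promoters in GRCm38.p6, which is mm10, the build named in the submitters' processing notes. The 250 bases before a start are printed 5′ to 3′ on the strand of the gene, with each match to 1 of 6 searched motifs in capitals. The first starts of *Tnc* and *Hopx* held no match and are not printed. Those printed are the second *Tnc* start (chr4:64046937-64047186, minus strand), the second *Hopx* start (chr5:77095268-77095517, minus strand) and the *Slc1a3* start (chr15:8710808-8711057, minus strand).
*Tnc*: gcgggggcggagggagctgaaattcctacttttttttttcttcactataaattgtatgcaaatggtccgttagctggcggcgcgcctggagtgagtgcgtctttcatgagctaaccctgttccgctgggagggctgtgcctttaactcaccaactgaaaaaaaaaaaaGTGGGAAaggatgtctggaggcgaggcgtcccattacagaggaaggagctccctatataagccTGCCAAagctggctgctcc
*Hopx*: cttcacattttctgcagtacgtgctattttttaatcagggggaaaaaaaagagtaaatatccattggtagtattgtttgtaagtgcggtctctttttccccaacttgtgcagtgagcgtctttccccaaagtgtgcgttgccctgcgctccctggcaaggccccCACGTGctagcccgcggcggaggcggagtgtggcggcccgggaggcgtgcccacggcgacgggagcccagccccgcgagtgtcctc
*Slc1a3*: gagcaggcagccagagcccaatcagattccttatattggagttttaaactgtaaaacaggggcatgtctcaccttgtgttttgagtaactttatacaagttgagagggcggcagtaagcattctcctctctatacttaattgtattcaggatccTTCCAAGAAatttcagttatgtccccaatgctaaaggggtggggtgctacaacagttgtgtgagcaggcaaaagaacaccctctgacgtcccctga

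The motifs were searched on both strands. The STAT motif TTCNNNGAA, bound by the factors that act downstream of *Il6st*, matched 2 of the 15 promoters, those of *Slc1a3* and *Moxd1*, and 7.02% of all 32851 promoters. The CSL motif GTGGGAA of the Notch pathway matched 1 (*Tnc*) and 5.42% of all promoters. The NFI motif TTGGCA matched 3, 1 of *Tnc* and 2 nearly identical windows of *Fam107a*, and 12.3% of all. The E-box CACGTG matched 1 (*Hopx*) and 6.02% of all, and the CREB motif TGACGTCA and the TEAD motif GGAATG matched none, against 1.55% and 12.6% of all. The 3 sequences shared none of the matched motifs. A match describes letters in these windows only.

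The levels of each gene by class are plotted per library.

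**Figure D1:**
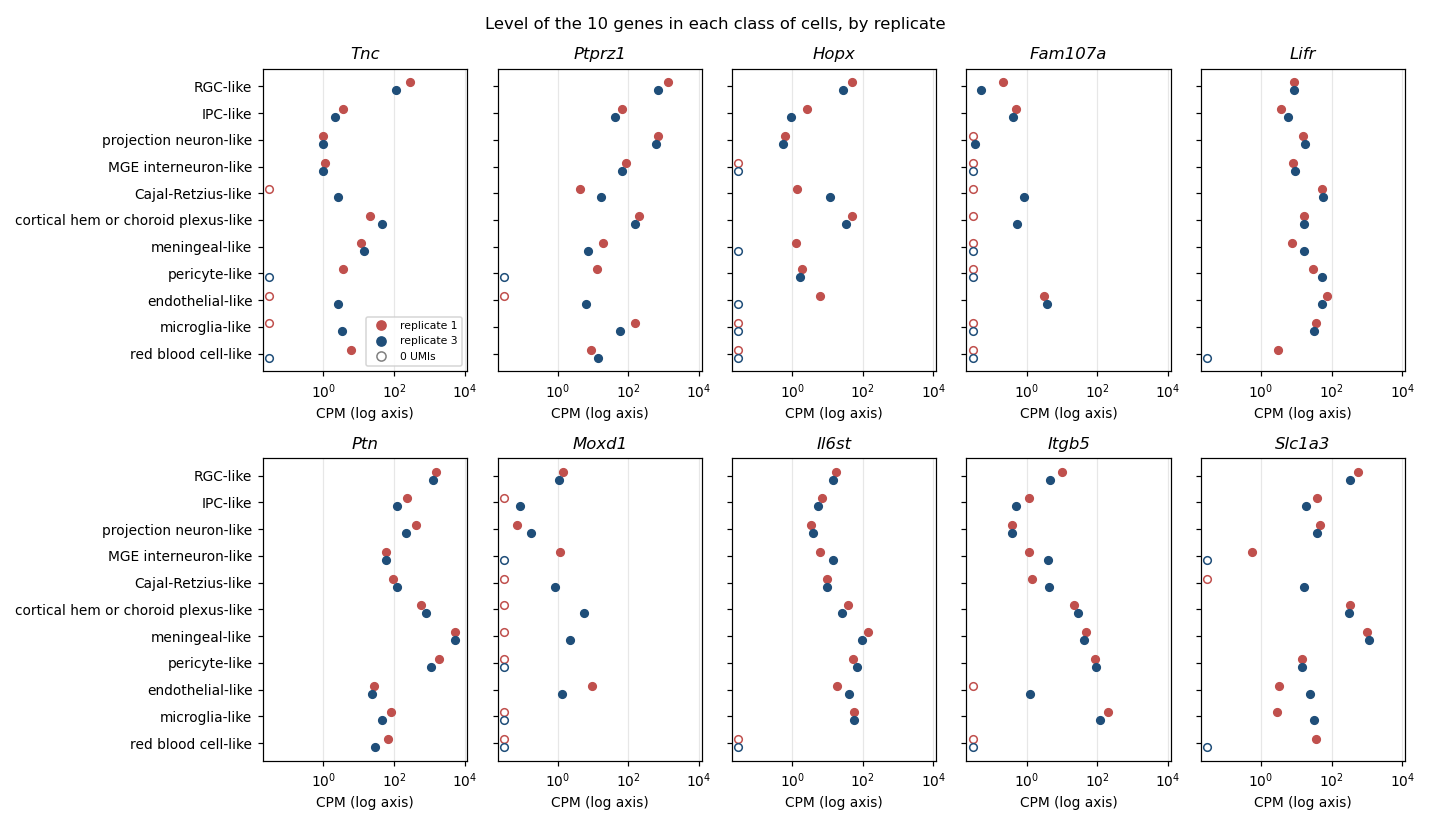
Level of each of the 10 genes in 11 named classes of cells, in CPM on a log axis, with 1 point per library (red, replicate 1 and blue, replicate 3); open points at the left edge mark 0 UMIs. *Tnc* and *Ptprz1* were highest in RGC-like cells, *Ptn*, *Slc1a3* and *Il6st* in meningeal-like cells, and *Fam107a* was near 0 in RGC-like cells.

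*Tnc* encodes tenascin-C, a glycoprotein of the extracellular matrix around germinal zones. It measured 293 CPM in RGC-like cells of replicate 1 and 117 CPM in those of replicate 3 (205 ± 124 CPM, SD, n = 2). It was next highest in the cortical hem or choroid plexus-like cells, at 21.8 and 47.3 CPM, and in the meningeal-like cells, at 11.7 and 14.7 CPM. IPC-like cells had 3.63 and 2.19 CPM of it, and projection neuron-like cells 1.02 and 1.01 CPM. Both RGC-like values lay above every value of the other classes, and RGC-like cells held 95.5% and 91.7% of the *Tnc* UMIs of all kept cells in replicates 1 and 3. The hem or choroid plexus-like values lay above the meningeal-like ones, which in turn lay above those of the remaining named classes. In replicate 1 this order rested on 4 UMIs in 17 hem or choroid plexus-like cells, near the floor of 3 UMIs, and 9 UMIs in meningeal-like cells.

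*Hopx* encodes a small homeodomain protein without DNA-binding activity that marks quiescent stem cells in several tissues. It measured 50.6 and 28.2 CPM in RGC-like cells (39.4 ± 15.9 CPM, SD, n = 2) and 49.1 and 33.5 CPM in cortical hem or choroid plexus-like cells, so the ranges of both classes overlapped. The hem or choroid plexus-like value of replicate 1 rested on 9 UMIs in 17 cells. In this cluster all 12 RGC markers were on beside all 11 hem or choroid plexus markers. IPC-like cells had 2.59 and 0.928 CPM of *Hopx* (15 and 11 UMIs), and projection neuron-like cells 0.635 and 0.539 CPM. No *Hopx* UMI was found in MGE interneuron-like cells, microglia-like cells or red blood cell-like cells of either library. Against a floor of 3 UMIs per library, the RGC-like level was at least 29.3-fold higher than in MGE interneuron-like cells in replicate 1 and at least 9.28-fold higher in replicate 3. RGC-like cells held 82.1% of the *Hopx* UMIs in each replicate.

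*Slc1a3* encodes the glutamate transporter GLAST, a classical marker of radial glia and astrocytes. It measured 551 and 323 CPM in RGC-like cells (437 ± 161 CPM, SD, n = 2). Meningeal-like cells were above this, at 1003.7 and 1162.5 CPM, and cortical hem or choroid plexus-like cells, at 339 and 314 CPM, overlapped with it. The IPC-like level of *Slc1a3* was 38.2 and 19.0 CPM and the projection neuron-like level 47.8 and 38.4 CPM, while in MGE interneuron-like cells 1 UMI was found in replicate 1 and 0 in replicate 3. The unnamed cluster led by *Gadd45g*, in which 11 of 12 RGC and 10 of 11 IPC markers were on, lay in between for *Slc1a3* (204 and 148 CPM), *Tnc* (23.0 and 7.94 CPM) and *Hopx* (19.6 and 4.93 CPM).

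*Ptn* encodes pleiotrophin, a secreted heparin-binding growth factor, and *Ptprz1* a receptor-type phosphatase to which pleiotrophin binds. *Ptn* measured 1570.1 and 1312.1 CPM in RGC-like cells (1441.1 ± 182 CPM, SD, n = 2). It was highest in meningeal-like cells, at 5338.1 and 5211.1 CPM, and its pericyte-like values of 1902.6 and 1140.8 CPM overlapped with the RGC-like ones. The IPC-like level of *Ptn* was 239 and 123 CPM and the projection neuron-like level 412 and 219 CPM, again overlapping ranges.

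*Ptprz1* measured 1359.9 and 701 CPM in RGC-like cells (1030.5 ± 466 CPM, SD, n = 2), the highest of the 11 named classes. Projection neuron-like cells followed at 674 and 612 CPM, below both RGC-like values. IPC-like cells, which stand between both classes in the lineage, had 65.2 and 41.9 CPM, and MGE interneuron-like cells 83.6 and 65.8 CPM. Projection neuron-like cells, the more numerous class, held more of the *Ptprz1* UMIs (56.1% and 52.6%) than RGC-like cells (37.7% and 42.9%). Over the 9 projection neuron-like clusters the mean *Ptprz1* level ran from 95.5 CPM in the cluster led by *Unc5d*, *Nrp1* and *Robo2* to 1015.7 CPM in the cluster led by *Kirrel3*, *Lrrtm3* and *Rgs6*. *Ptn* ran otherwise over these clusters, from 15.6 CPM in the cluster led by *Slit3* to 990 CPM in the cluster led by *Cdh12*.

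*Il6st* encodes gp130, the signalling subunit shared by the interleukin 6 family of cytokines, and *Lifr* the receptor subunit that pairs with it. *Il6st* measured 17.0 and 14.2 CPM in RGC-like cells (15.6 ± 1.93 CPM, SD, n = 2), the sixth class in order. It was highest in meningeal-like cells (144 and 94.7 CPM), followed by pericyte-like cells (54.1 and 67.4 CPM) and microglia-like cells (57.0 and 55.2 CPM), whose ranges overlapped. Cortical hem or choroid plexus-like cells also lay above the RGC-like cells, at 38.2 CPM on 7 UMIs in replicate 1 and 25.8 CPM in replicate 3. *Lifr* measured 8.48 and 8.88 CPM in RGC-like cells (8.68 ± 0.282 CPM, SD, n = 2), the eighth of 11 named classes. Endothelial-like cells (72.2 and 54.0 CPM), Cajal-Retzius-like cells (54.1 and 56.0 CPM) and pericyte-like cells (29.8 and 54.2 CPM) were highest and overlapped. Projection neuron-like cells, at 15.5 and 17.4 CPM, lay above the RGC-like cells in both libraries, and IPC-like cells, at 3.63 and 5.65 CPM, below them. Cortical hem or choroid plexus-like cells lay above the RGC-like cells too, at 16.4 CPM on 3 UMIs in replicate 1 and 16.5 CPM in replicate 3.

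*Itgb5* encodes an integrin beta subunit that binds vitronectin. It measured 10.3 and 4.54 CPM in RGC-like cells (7.41 ± 4.06 CPM, SD, n = 2) against 199 and 121 CPM in microglia-like, 87.7 and 95.3 CPM in pericyte-like and 46.8 and 42.8 CPM in meningeal-like cells, which did not overlap with each other. In IPC-like cells it was 1.21 and 0.506 CPM. Cortical hem or choroid plexus-like cells also lay above the RGC-like cells, at 21.8 CPM on 4 UMIs in replicate 1 and 28.0 CPM in replicate 3.

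*Moxd1*, a monooxygenase related to dopamine beta-hydroxylase, and *Fam107a*, an actin-associated protein, were close to absent. *Moxd1* had 13 and 22 UMIs in RGC-like cells, 1.38 and 1.11 CPM, out of 66 UMIs in all kept cells. *Fam107a* had 2 UMIs and 1 UMI in RGC-like cells, 0.212 and 0.0504 CPM, at or below the floor of 3 UMIs, and 26 UMIs in all kept cells. In IPC-like cells *Fam107a* had 3 and 5 UMIs. In the unnamed cluster led by *Hba-x*, of low UMI counts, 6 UMIs came from replicate 1 and none from replicate 3.

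The comparison of RGC-like cells with their progeny asks whether the signature separates stem cells from committed progenitors and neurons in the mouse. Sums per class and library were tested in edgeR (quasi-likelihood, p adjusted by Benjamini-Hochberg over 15610 genes). Of the members 9 were tested, since *Fam107a* did not pass the filter on low counts. *Moxd1* and *Hopx* passed mainly through their RGC-like counts, so the tested members are not a neutral sample of the 10. In RGC-like against IPC-like cells all 9 tested members were higher, in 2 of 2 libraries each, while 23.4% of all tested genes were called higher and 23.1% lower. The median log2 difference was 2.89 over the 9 members and 0.00 over all genes.

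**Figure D2:**
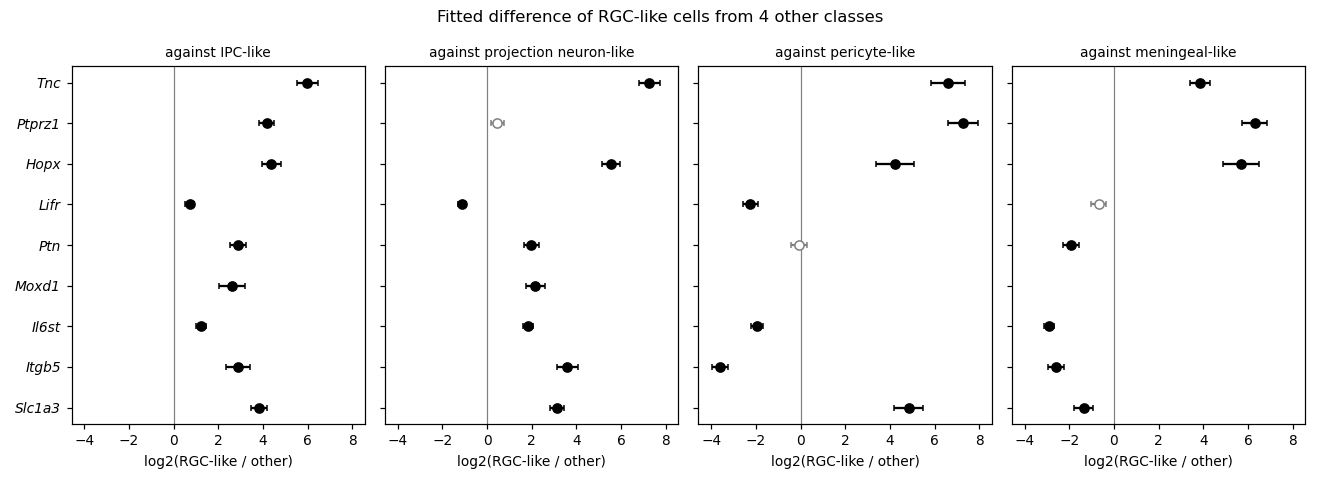
Fitted log2 differences of RGC-like cells from IPC-like, projection neuron-like, pericyte-like and meningeal-like cells for the 9 members that passed the filter, with bars of 1 SE; filled points passed an adjusted p of 0.05. The members lay right of 0 against IPC-like cells and on both sides of 0 against meningeal-like cells. Where the other class had few UMIs in a library (*Moxd1* against IPC-like and projection neuron-like cells, *Tnc*, *Hopx* and *Ptprz1* against pericyte-like cells and *Hopx* against meningeal-like cells), the size depends on the prior count.

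Against IPC-like cells, *Tnc* was higher by 5.99 on the log2 scale (SE 0.48, adjusted p = 1.92e-05), *Hopx* by 4.37 (SE 0.42, adjusted p = 0.000111) and *Ptprz1* by 4.16 (SE 0.33, adjusted p = 1.99e-05) in the edgeR test. *Slc1a3* differed by 3.83 (SE 0.35), *Ptn* by 2.89 (SE 0.36) and *Itgb5* by 2.87 (SE 0.54). The *Tnc* difference was 4.56 with members allowed in the clustering, 4.74 with predicted doublets kept and 7.28 with the stricter cell filter. The cytokine receptors differed least, *Il6st* by 1.23 (SE 0.24, adjusted p = 0.00316) and *Lifr* by 0.71 (SE 0.21, adjusted p = 0.0204). *Moxd1* passed with an adjusted p of 0.00695, on 0 UMIs and 1 UMI in IPC-like cells, so no size is given.

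Against projection neuron-like cells, 7 of the 9 members were higher in RGC-like cells and 1 lower, where 30.2% of tested genes were higher and 33.7% lower. *Tnc* differed by 7.25 (SE 0.47, and 6.50 from replicate 3 alone), *Hopx* by 5.54 (SE 0.40), *Itgb5* by 3.59 (SE 0.48, and 2.98 from replicate 3 alone), *Slc1a3* by 3.12 (SE 0.32), *Ptn* by 1.97 (SE 0.34) and *Il6st* by 1.83 (SE 0.23). The other higher member was *Moxd1* (edgeR adjusted p = 0.00231), which like *Hopx* passed the filter mainly through its RGC-like counts. It had 2 and 5 UMIs in projection neuron-like cells, so no size is given. *Lifr* was lower in RGC-like cells, at -1.12 (SE 0.18, edgeR adjusted p = 0.000489). The *Ptprz1* difference of 0.46 (SE 0.29, edgeR adjusted p = 0.192) did not pass the test, and was 0.75 in replicate 1 and 0.00 in replicate 3.

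Between the IPC-like and projection neuron-like cells, 0 of 9 members were higher and 2 lower in IPC-like cells, against 18.7% and 21.5% of tested genes. *Ptprz1* was lower in IPC-like cells by -3.70 (SE 0.33, edgeR adjusted p = 4.15e-05) and *Lifr* by -1.82 (SE 0.20, edgeR adjusted p = 0.000126). The other 7 did not pass, with *Tnc* at 1.26 (SE 0.66) and *Ptn* at -0.91 (SE 0.33). With the replicate number as a block, 2 members were higher (*Hopx* and *Tnc*) and 4 lower (*Lifr*, *Ptn*, *Ptprz1* and *Slc1a3*), where 21.8% of genes were higher and 23.9% lower.

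Against MGE interneuron-like cells, neurons of another lineage, 5 of 9 members were higher in RGC-like cells and 0 lower, where 30.8% of tested genes were higher and 27.3% lower. *Ptn* differed by 4.54 (SE 0.41) and *Ptprz1* by 3.74 (SE 0.35). *Tnc* and *Slc1a3* had at most 2 UMIs in a library of the interneuron-like cells and passed with edgeR adjusted p of 5.81e-05 and 8.79e-06. *Hopx*, with no UMI there, passed with an edgeR adjusted p of 0.000348. It passed the low-count filter mainly through its RGC-like counts, so its direction was set when it entered the test. *Il6st* (0.68, SE 0.33), *Lifr* (0.01, SE 0.47), *Itgb5* (1.56, SE 0.72) and *Moxd1* did not pass.

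The non-neural classes were compared in a fit over all classes of at least 20 cells per library, with 12593 genes and 8 members tested. Endothelial-like cells, with 17 cells in replicate 1, were not tested. *Hopx* again passed the filter mainly through its RGC-like counts. It had 1 UMI and 0 UMIs in meningeal-like cells and 1 UMI per library in pericyte-like cells. Its calls as higher below therefore lean on how it entered the test. Against meningeal-like cells 3 members were higher in RGC-like cells (*Hopx*, *Ptprz1* and *Tnc*, the last by 3.85 with 4.67 from replicate 1 and 3.07 from replicate 3) and 4 lower, where 24.8% of genes were higher and 23.0% lower. *Il6st* was lower by -2.92 (SE 0.23), *Itgb5* by -2.60 (SE 0.36), *Ptn* by -1.91 (SE 0.35) and *Slc1a3* by -1.35 (SE 0.42, edgeR adjusted p = 0.0139), the last of which did not pass in DESeq2 (-1.51, adjusted p = 0.357). Against pericyte-like cells 4 members were higher (*Hopx*, *Ptprz1*, *Slc1a3* and *Tnc*) and 3 lower, where 20.9% of genes were higher and 18.1% lower. *Itgb5* was lower by -3.60 (SE 0.37, and -2.96 from replicate 1 alone), *Lifr* by -2.24 (SE 0.32) and *Il6st* by -1.95 (SE 0.28), and *Ptn* differed by -0.08 (SE 0.35, edgeR adjusted p = 0.877).

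Partner genes were taken from 7 lists, described here by counts and medians. All values are of RGC-like against IPC-like cells, where 23.4% of tested genes were higher and 23.1% lower. Genes with almost no UMIs in IPC-like cells, such as *Aqp4*, *Wif1*, *Ccn2* and *Fgf15*, passed the low-count filter through other classes. Their calls as higher are therefore not a neutral part of the counts. Of 20 genes of gp130 cytokine signalling 14 were tested, with 4 higher and 2 lower and a median log2 difference of 0.10 against 0.00 over all genes. *Cntfr*, the ligand-binding subunit for ciliary neurotrophic factor that joins gp130 and the LIF receptor, measured 52.9 and 60.6 CPM in RGC-like and 9.34 and 16.8 CPM in IPC-like cells (1.96, SE 0.23). *Ctf1*, which encodes the ligand cardiotrophin 1, had 5.19 and 5.24 CPM against 1.73 and 1.43 CPM (1.56, SE 0.28). *Pias3*, an inhibitor of STAT3, was higher by 0.82 (SE 0.22) and the kinase gene *Tyk2* lower by -0.83 (SE 0.23).

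Of 19 genes of pleiotrophin and its receptor phosphatase partners, 18 were tested, with 7 higher and 8 lower in RGC-like cells and a median of 0.28. The syndecans, heparan sulphate carriers that bind pleiotrophin, went both ways: *Sdc2* (37.5 and 35.3 against 7.09 and 3.96 CPM) and *Sdc4* (9.11 and 10.4 against 1.38 and 0.169 CPM) were higher, and *Sdc3* (6.46 and 1.76 against 40.6 and 27.7 CPM) lower. The matrix proteoglycan gene *Bcan* was higher by 2.83 (SE 0.19), and the adhesion molecule gene *L1cam* lower by -4.49 (SE 0.18).

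Of 20 integrin and matrix genes, 16 were tested, with 8 higher and 3 lower and a median of 0.73. The laminin gene *Lama1* (34.4 and 37.5 against 0.865 and 0.928 CPM), the fibronectin gene *Fn1* (37.5 and 54.8 against 5.53 and 6.41 CPM) and the integrin genes *Itga5* (3.36, SE 0.38) and *Itgb8* (2.63, SE 0.41) were higher, and the laminin gene *Lamb1* lower by -3.54 (SE 0.23). Of 19 astroglial and gliogenic genes 16 were tested, with 8 higher and 4 lower and a median of 1.88. *Clu* measured 38.1 and 31.1 CPM against 1.21 and 0.422 CPM, *Id4* 327 and 382 CPM against 26.8 and 16.5 CPM, and *Acsbg1* 25.9 and 14.8 CPM against 0.865 and 0.759 CPM. The astrocyte gene *Aldh1l1* had 22.3 CPM in RGC-like cells of replicate 1 and 2.98 CPM in those of replicate 3, and *Aqp4*, the astrocytic water channel, 1.27 and 1.51 CPM. Both were higher than in IPC-like cells, which had at most 0.346 CPM of *Aldh1l1* and 0.0843 CPM of *Aqp4* (edgeR adjusted p = 0.00896 and 0.00336). Both genes entered the test through counts of other classes, so these calls are not a neutral test.

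Genes used for ventricular radial glia of the human cortex were a counterpart, with 8 of 9 tested, 5 higher and 1 lower and a median of 0.66. *Tagln2* had 67.3 and 48.7 CPM in RGC-like against 2.42 and 1.01 CPM in IPC-like cells, *Pdgfd* 6.04 and 4.64 CPM against 0.519 and 0.0843 CPM, *Palld* 187 and 188 CPM against 104 and 96.3 CPM, and *Ccn2* 3.71 and 4.14 CPM against 0.173 and 0 CPM, while *Fbxo32* was lower by -2.56 (SE 0.28). The other 2 tested genes of this list did not pass.

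Regional genes formed the last lists, which like the human ventricular list took part in the clustering, so their counts describe the classes. Of 18 medial pallium genes 15 were tested, with 5 higher and 2 lower and a median of 0.41, beside the 23.4% and 23.1% over all tested genes. *Id3* had 45.0 and 45.8 CPM in RGC-like against 0.865 and 2.19 CPM in IPC-like cells, and the Wnt modulator gene *Dkk3* 14.5 and 16.3 against 1.56 and 2.19 CPM. *Wif1*, a Wnt inhibitor, had 1.70 and 5.45 CPM and no UMI in IPC-like cells. The ligand genes *Wnt7b* (9.01 and 6.66 against 31.5 and 34.7 CPM) and *Wnt5a* (3.92 and 7.01 against 17.3 and 22.0 CPM) were lower. Of 12 genes of the lateral pallium and antihem 11 were tested, with 6 higher and 1 lower and a median of 1.25. The neuregulin gene *Nrg3* differed by 2.72 (SE 0.32) and the secreted Wnt antagonist genes *Sfrp2* by 2.46 (SE 0.47) and *Sfrp1* by 2.18 (SE 0.16). The transcription factor gene *Pax6* differed by 1.29 (SE 0.14). *Pax6* was among the markers that named the RGC-like clusters, so its call is not independent of the class. *Fgf15* had 6.15 and 1.26 CPM against 0.173 and 0.0843 CPM.

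To describe single cells, each cell was thinned to 3000 UMIs, which left 660 RGC-like cells of replicate 1 and 1517 of replicate 3 and omitted 22 and 38. A *Tnc* UMI was present in 40.6% (95% Wilson interval 36.9 to 44.4%) of RGC-like cells in replicate 1 and 21.6% (19.6 to 23.7%) in replicate 3, or 64.1% and 39.9% without thinning. In MGE interneuron-like cells, which served as background, it was present in 0.375% and 0.676%. Median depths before thinning were 13002 and 11941 UMIs in RGC-like and 4494.5 and 3938 UMIs in MGE interneuron-like cells. Intervals cover counting error only.

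A *Hopx* UMI was present in 12.6% (10.3 to 15.3%) and 6.20% (5.09 to 7.52%) of thinned RGC-like cells, 37.5% and 23.8% without thinning, against 0 of 267 and 0 of 148 interneuron-like cells, for which 3 cells of the total, the limit that a count of 0 allows, are 1.12% and 2.03%. *Slc1a3* was present in 71.7% (68.1 to 75.0%) and 55.0% (52.5 to 57.5%) of the RGC-like cells, 648 of 682 and 1362 of 1555 cells without thinning, against 0 of the same interneuron-like cells. Meningeal-like cells had *Slc1a3* more often, in 86.3% and 87.9% of cells, and cortical hem or choroid plexus-like cells in 47.1% and 36.4%. *Ptprz1* was found in 593 of 660 and 1137 of 1517 RGC-like cells against 19.9% and 12.2% of interneuron-like cells, and *Ptn* in 92.9% and 86.9% against 15.4% and 12.2% (97.7%, 92.7%, 97.8% and 95.3% of RGC-like cells without thinning). The share of *Ptprz1* was 61.7% and 61.0% in projection neuron-like cells but 11.6% and 8.64% in IPC-like cells.

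**Figure D3:**
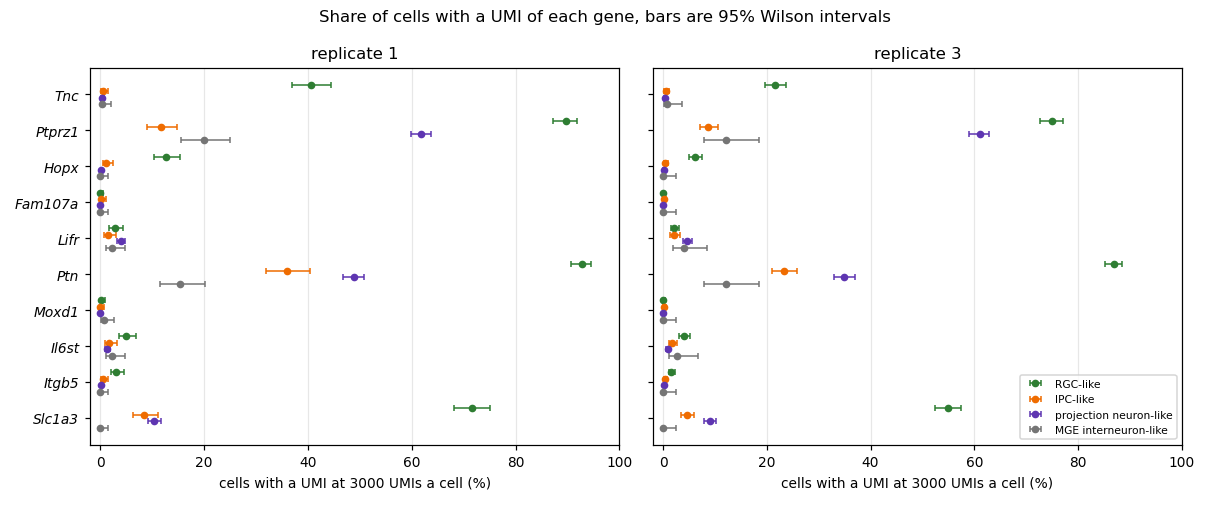
Percent of cells with at least 1 UMI of each gene after thinning to 3000 UMIs a cell, in RGC-like, IPC-like, projection neuron-like and MGE interneuron-like cells of replicate 1 (left) and replicate 3 (right), with 95% Wilson intervals. Of these 4 classes, *Tnc*, *Hopx* and *Slc1a3* were present mainly in RGC-like cells, and *Ptprz1* and *Ptn* also in many projection neuron-like cells.

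Of the 5 genes *Tnc*, *Hopx*, *Ptprz1*, *Ptn* and *Slc1a3*, chosen after their values were seen, at least 3 were present together in 74.5% of thinned RGC-like cells of replicate 1 and 49.9% of replicate 3, against 0.813% and 0.0929% of IPC-like cells and 3.24% and 2.12% of projection neuron-like cells. The share was 11.8% and 16.1% in cortical hem or choroid plexus-like cells and 7.84% and 6.38% in meningeal-like cells. All 5 were present in 34 of 660 and 11 of 1517 RGC-like cells, or 5.15% and 0.725%.

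Over the whole RGC-like class, *Tnc*, *Ptprz1*, *Hopx*, *Slc1a3* and *Itgb5* were higher in replicate 1. The ratio of replicate 1 to replicate 3 was 2.50 for *Tnc*, 2.26 for *Itgb5*, 1.94 for *Ptprz1*, 1.80 for *Hopx* and 1.70 for *Slc1a3*, against 1.20 for *Ptn*, 1.19 for *Il6st* and 0.955 for *Lifr*. Thus 5 of the 8 members of at least 5 CPM exceeded 1.5-fold, as did 3.45% of the 10482 genes of that level, and 2 exceeded 2-fold, as did 1.14%. No test is possible between single libraries. The *Tnc* ratio was 2.98, 2.65, 1.86 and 3.06 in the RGC-like clusters led by *Mt3*, *Hist1h1b*, *Ltbp1* and *Cdc20*, while *Hopx* in the *Ltbp1* cluster (28.9 and 32.5 CPM) and *Itgb5* in the *Cdc20* cluster (4.36 and 8.04 CPM) were higher in replicate 3. In the *Mt3* cluster, genes of the lateral pallium and antihem summed to 10784.1 CPM in replicate 1 and 8263.4 CPM in replicate 3, and genes of the medial pallium to 2225.0 and 1550.3 CPM. Their part in the difference was not tested.

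The 4 RGC-like clusters differed in cell cycle and region. The cluster led by *Mt3* and *Creb5* held 773 cells, that led by the S phase histone gene *Hist1h1b* 735, that led by *Ltbp1* and *Adamts19* 406, and that led by the mitotic genes *Cdc20* and *Cenpa* 323. The *Ltbp1* cluster had the highest medial pallium sum of the 4, 5057.0 and 4151.9 CPM, and held 73 cells of replicate 1 and 333 of replicate 3. The values are a description, since the clusters were made from the same cells.

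**Figure D4:**
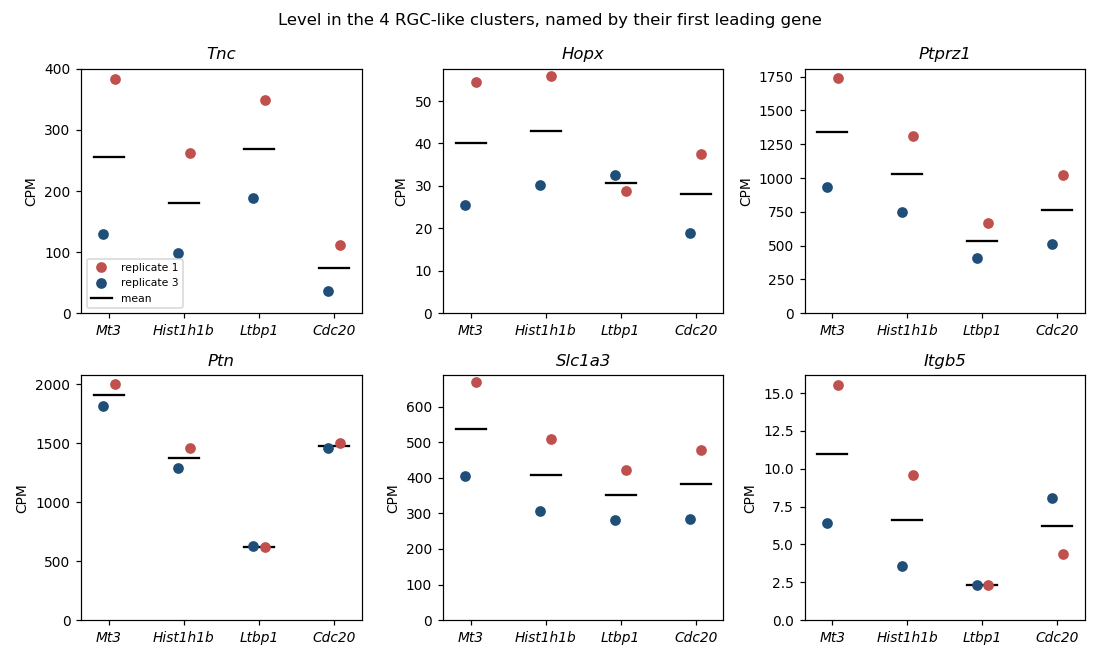
Level in CPM of 6 members in the 4 RGC-like clusters, each labelled by its first leading gene, with 1 point per library and a bar at the mean. *Ptn* was lowest in the *Ltbp1* cluster in both libraries, and *Tnc* in the *Cdc20* cluster.

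*Ptn* was lowest in the *Ltbp1* cluster, at 619 and 627 CPM, and highest in the *Mt3* cluster, at 2004.7 and 1819.1 CPM, with the values of both libraries apart. *Ptprz1* had the same extremes, 671 and 405 CPM against 1742.8 and 934 CPM. *Tnc* did not follow them: it was 349 and 188 CPM in the *Ltbp1* cluster and 383 and 129 CPM in the *Mt3* cluster, and lowest in the *Cdc20* cluster at 111 and 36.2 CPM. *Hopx* ran from a mean of 28.1 CPM in the *Cdc20* cluster to 43.0 CPM in the *Hist1h1b* cluster, with overlapping libraries, and *Slc1a3* from 351 to 536 CPM.

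By phase score, 29.1% and 28.9% of the thinned RGC-like cells were in G1, 26.5% and 455 of 1517 cells in S and 44.4% and 41.1% in G2M. Levels by phase are from the full counts of these cells, with the genes used for scoring left out of the total. *Tnc* measured 321 and 142 CPM in G1, 414 and 155 CPM in S and 222 and 82.0 CPM in G2M, lower in G2M than in G1 in 2 of 2 libraries. *Ptprz1* measured 1368.1 and 577 CPM in G1 and 1442.5 and 810 CPM in S, and *Slc1a3* was lower in S than in G1 in both libraries, from 363 CPM in G1 to 313 CPM in S in replicate 3.

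**Figure D5:**
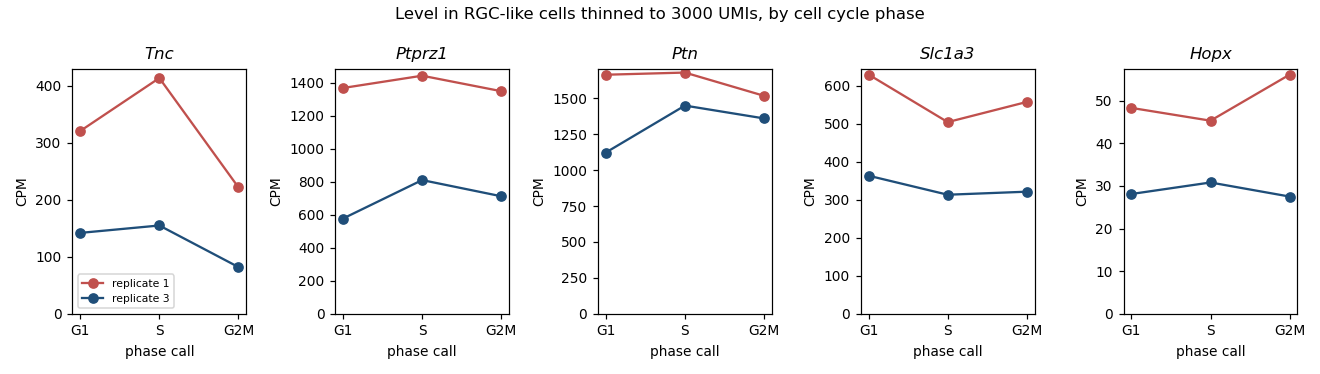
Level in CPM of 5 members in RGC-like cells called G1, S or G2M, with 1 line per library. Cells were thinned to 3000 UMIs for the phase score only, and levels are from their full counts without the genes used for scoring. *Tnc* was lowest in G2M in both libraries, and replicate 1 lay above replicate 3 for all 5.

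In the edgeR test over 12723 genes, 0 of 8 tested members were called between S and G1, where 6.70% of genes were higher in S and 2.11% lower, and 0 of 8 between G2M and G1, where 6.11% were higher and 2.62% lower. At an unadjusted p under 0.05 there were 3144 and 3055 genes, and DESeq2 called 872 and 823. Both phases come from the same library, and with the replicate number as a block 4 members passed between S and G1: *Ptprz1* (0.33, SE 0.07, adjusted p = 0.00462), *Tnc* (0.29, SE 0.08) and *Ptn* (0.23, SE 0.07) were higher in S and *Slc1a3* lower at -0.22 (SE 0.06), with 14.5% of genes higher and 9.61% lower. Between G2M and G1, *Tnc* was lower by -0.63 (SE 0.08, edgeR adjusted p = 3.66e-05) with the block, where 11.5% of genes were lower.

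To describe which genes accompany *Hopx* and *Tnc*, thinned RGC-like cells with a UMI of *Hopx* or *Tnc* were compared with the rest. The 83 and 94 *Hopx*-detected cells gave no call against the 577 and 1423 others in the edgeR test, with 0% of 9203 genes higher and 0% lower, 404 genes at an unadjusted p under 0.05 and 1 call by DESeq2. *Tnc* had 386 and 124 CPM in *Hopx*-detected cells and 266 and 115 CPM in the others, a difference of 0.42 (SE 0.46) that did not pass. With the block, 4 genes were called. *Id3*, a target of bone morphogenetic protein signalling, had 117 and 106 CPM against 34.7 and 33.7 CPM (1.67, SE 0.23, adjusted p = 0.0135), and the ephrin gene *Efna5* 269 and 145 CPM against 120 and 66.8 CPM, while *Gadd45g*, a growth arrest gene active in neurogenic progenitors, had 0 and 14.2 CPM against 65.9 and 71.4 CPM.

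Among the 268 and 327 *Tnc*-detected cells, 0 of 6 tested members differed from the 392 and 1190 others in the edgeR test, where 0.204% of 9323 genes were higher and 0.0536% lower, 693 genes at an unadjusted p under 0.05. With the block, *Ptprz1* (0.58, SE 0.06), *Slc1a3* (0.52, SE 0.08) and *Ptn* (0.24, SE 0.05) were higher in *Tnc*-detected cells, with 3.28% of genes higher and 1.47% lower. *Ptprz1* had 1666.7 and 944 CPM in *Tnc*-detected and 1070.6 and 654 CPM in other cells, and *Slc1a3* 694 and 432 CPM against 499 and 290 CPM. *Hopx*, at 61.0 and 25.5 CPM against 40.8 and 21.3 CPM, did not pass in either fit (adjusted p = 0.814 without and 0.394 with the block in edgeR).

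For the *Tnc* split, DESeq2 called 6 genes, and edgeR 8 with the stricter cell filter and 2 with members allowed in the clustering. The main edgeR fit without the block called 24 genes, of which 19 were higher. They included the adhesion molecule genes *Ntm* (477 and 233 CPM in *Tnc*-detected against 130 and 66.9 CPM in other cells) and *Ntng1* (228 and 148 against 69.7 and 45.4 CPM), the protease gene *Pappa* (37.3 and 73.4 against 15.3 and 16.8 CPM), *Samd5* (68.5 and 59.2 against 20.4 and 19.0 CPM), *Sorcs2* (38.6 and 29.6 against 10.2 and 8.40 CPM), *Dlgap2* (37.3 and 93.8 against 6.80 and 18.2 CPM), the immediate early gene *Fos* (49.8 and 52.0 against 14.5 and 18.5 CPM) and *8030451A03Rik* (72.2 and 62.2 against 6.80 and 7.56 CPM). The 5 lower genes were the mitotic genes *Cenpa* (106 and 121 against 251 and 233 CPM), *Ccnb2*, *Cdc20* and *Ube2c* (238 and 262 against 435 and 434 CPM), and the globin gene *Hba-a1* (31.1 and 87.7 against 236 and 183 CPM), an erythroid transcript. With the block the beta globin gene *Hbb-bs* was lower too, at 73.4 and 222 against 338 and 332 CPM. The part of phase and of erythroid RNA in this split was not tested.

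Over single thinned RGC-like cells the members were weakly related, which sparse counts limit. Pearson's r of log values was 0.34 in replicate 1 and 0.29 in replicate 3 for *Ptprz1* and *Ptn*, 0.28 and 0.11 for *Tnc* and *Ptprz1*, 0.18 and 0.14 for *Tnc* and *Slc1a3*, and 0.08 and 0.02 for *Tnc* and *Hopx*. Over the 28 clusters of at least 50 cells, which share 2 libraries, r was 0.87 for *Tnc* and *Hopx*, 0.78 for *Tnc* and *Slc1a3*, 0.65 for *Hopx* and *Slc1a3*, 0.67 for *Ptn* and *Slc1a3* and 0.84 for *Il6st* and *Itgb5*, but 0.18 for *Ptn* and *Ptprz1*, 0.41 for *Lifr* and *Il6st* and 0.34 for *Tnc* and *Ptprz1*. A *Tnc* UMI was present in 50.6% of *Hopx*-detected and 39.2% of other RGC-like cells in replicate 1, and in 24.5% and 21.4% in replicate 3, with overlapping 95% Wilson intervals in each replicate.

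Among 8005 genes of at least 50 CPM in a cluster, those whose pattern over the 28 clusters was most like *Hopx* were *Mt3* (r = 0.96), *Ndrg2* (0.92) and *Psph* (0.91), and those most like *Tnc* were *Aldoc* (0.90), *Veph1* (0.89) and *Mlc1* (0.89). *Slc1a3* was most like *Megf10* (0.84), *Acot1* (0.81) and *Col2a1* (0.80), and *Ptn* most like *Ptpn13* (0.80), *Gpc3* (0.74) and *Hmgn3* (0.74). *Ptprz1* was most like *Adamts18* (0.87), *Cadm2* (0.86) and *Dab1* (0.85). *Il6st* was most like *Txndc5*, *Bcap31* and *Nr2f6* (0.92 each), *Itgb5* most like *Dock10* (0.91), *Lgals1* (0.90) and *Sdc4* (0.90), and *Lifr* most like *Fam118a* (0.85), *Lrrfip1* (0.84) and *Reep5* (0.83). *Moxd1* (*Efna1*, 0.84) and *Fam107a* (*Ctla2a*, 0.84) rested on few UMIs.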

How the data were processed

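The authors deposited, per sample, a matrix of UMI counts per gene and cell barcode from 10x Genomics 3′ libraries, made with Cell Ranger 7.0.0, and the submitters' processing notes name the build mm10. The intron setting is not given in the sources used here. Cells needed 1500 to 60000 UMIs, with mitochondrial genes below 10%, and predicted doublets (304 and 629) were removed after simulating 2 per cell. Clusters (scanpy 1.11.5, 2000 variable genes, 30 components, Leiden resolution 1.0) left out 88 genes, the members and the gp130, pleiotrophin, integrin and astroglial lists, and were named "-like" from 126 markers of 15 classes. Members, markers and lists were chosen with earlier results of these data known.

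UMIs were summed per class and library and tested with edgeR 4.0.16 (quasi-likelihood, TMM, low-count filter, Benjamini-Hochberg adjustment, threshold 0.05). Fold changes are log2 with a prior count of 2, and the SE was derived from the fold change and its F statistic. The design had no block. Classes, phases and detection groups of 1 library come from the same sample, so the replicate number pairs them. Differences between the replicates correlated from 0.033 to 0.235 between classes over 15610 genes. Phases were scored from 43 S and 54 G2M genes. Named genes were all members, up to 5 called genes of each list with the largest difference from IPC-like cells, up to 8 genes per direction of at least 20 CPM in the detection splits, and the 3 most similar genes, and a few genes that the rule names are not reported here. Lateral and medial pallium genes completed 7 lists. Alternatives were DESeq2 1.42.0, other filters, scaling, thinning and clusterings, and the replicate block. The steps were tested on simulated data. Wilson intervals are at 95%.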

Additional observations from a re-analysis of the deposited data

How the results depend on the processing

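Over 834 alternative values of the members' differences, 764 stayed on their side of the threshold or, from 1 library without a test, within 1 SE, 21 passed that had not, 1 no longer passed (*Slc1a3* against meningeal-like cells in DESeq2, given above) and none of the called differences changed sign. The remaining 48 came from 1 library alone, without a test, and moved by more than the SE. In 20 of the alternatives a called difference stayed called but moved by over 1.5-fold, 9 of them with predicted doublets kept, among them *Tnc* against projection neuron-like cells (6.29) and, against MGE interneuron-like cells, *Ptprz1* (2.71) and *Ptn* (3.32). With members allowed in clustering *Ptprz1* became 4.76 against IPC-like cells and -4.37 between IPC-like and projection neuron-like cells. Counts of called genes between classes stayed within 1.5 times under every alternative run. Between IPC-like and projection neuron-like cells, 5 members passed in DESeq2 and 6 with the replicate block, against 2.

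Within RGC-like cells the counts moved. Between S and G1, 1122 genes became 1986 without the filter on low counts, 2086 with predicted doublets kept and 3073 with the replicate block, and members called 4 with the block against 0. Between G2M and G1, 1110 became 1949 without the filter and 3247 with the block, with 1 member (*Tnc*) in each. For *Hopx*-detected cells, 0 became 1 in DESeq2, 17 without the filter, 4 with the block, 8 with doublets kept and 1 at Leiden resolution 1.5. For *Tnc*-detected cells, 24 became 6 in DESeq2, 187 without the filter (1 member), 443 with the block (3 members), 8 with the stricter cell filter, 9 with doublets kept, 2 with members allowed in clustering and 14 at 1500 UMIs. The cause was not tested. A block leaves 2 paired differences, so the test rests on variance shared between genes. With 1 library left out no test can be made. The few UMIs of *Fam107a* and *Moxd1* limit what can be said of them. After thinning to 3000 UMIs, *Lifr*, *Il6st* and *Itgb5* were each found in few RGC-like cells.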
